A study of Mus musculus with 6 samples.

Results

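The transcripts of 10 genes of the inflammasome machinery were followed in CT26 tumors: the 4 NAIP paralogs Naip1, Naip2, Naip5 and Naip6, their partner Nlrc4, the sensor Nlrp3, the adaptor Pycard, the proteases Casp1 and Casp4, and the pore protein Gsdmd. These 10 genes, of 23557 in the table, were chosen by name, after Naip5 and Naip6 had been selected on their higher values in H89 than in NaCl tumors of these data. The H89 against NaCl values of the 10 genes are therefore given as a description. No exact p-value is printed for a member, only whether it passed the threshold. Counts of members called are given with the share or number of all genes called, and they support nothing. CT26 cells derive from a colon carcinoma of a BALB/c mouse. Female BALB/c mice, obtained at 7 weeks of age, were grafted subcutaneously with 500000 CT26 cells. Starting on day 6 they were injected i.p., 2 times per week, with NaCl (control group, 3 tumors) or with 10 mg/kg H89 (3 tumors), and the tumors were collected on day 14. H89 is a kinase inhibitor best known for blocking protein kinase A. No group without the cells or without injections was compared, and every tumor is a mixture of grafted CT26 cells and cells of the host. The comparison asks how the transcripts of a tumor differ after treatment with H89.

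Inflammasomes are protein platforms that assemble in the cytosol, mainly of macrophages and other myeloid cells, and activate inflammatory caspases. NAIP proteins are the receptors for bacterial ligands: in mice, NAIP5 and NAIP6 bind flagellin, NAIP2 binds the rod protein and NAIP1 the needle protein of type III secretion systems. A ligand-bound NAIP recruits NLRC4, caspase-1 is then activated, and it cleaves pro-IL-1β, pro-IL-18 and gasdermin D, whose fragment forms pores in the membrane. Caspase activation is regulated at the level of the protein, so transcript levels do not report it.

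The total estimated count was between 27067349 and 31958793 per tumor, and values are given as counts per 1000000 (CPM) on library sizes normalized by edgeR's TMM method. On the library totals before this normalization, 3 counts in a tumor corresponded to between 0.0939 and 0.111 CPM. Markers of epithelium and colon carcinoma were scarce: 3 of 7 were under a mean of 0.5 CPM, Epcam, a surface marker of epithelium, was between 0 and 1.18 CPM, and the 7 together summed to between 11.2 and 26.3 CPM. Macrophage markers were abundant, at a sum of 2188 to 3470 CPM for 11 genes. In bulk tumors, fewer cells of a type and less RNA per cell cannot be told apart. The labels and methods give no batch or date of sequencing, and p-values measure the spread between 3 tumors per group.

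The 4 NAIP genes stand side by side on the minus strand of chromosome 13, within chr13:100144063-100452869 of GRCm38, a span of 308.8 kb, and Naip5 and Naip6 are direct neighbours separated by 34.8 kb. Naip2 (ENSMUSG00000078945) is at chr13:100144063-100202092, Naip5 (ENSMUSG00000071203) at chr13:100211739-100246323, Naip6 (ENSMUSG00000078942) at chr13:100281121-100317674 and Naip1 (ENSMUSG00000021640) at chr13:100407764-100452869. Their coding sequences are near-identical. Those of Naip5 and Naip6 were 96.96% identical in the reference, with 128 of 4209 bases differing and 1 stretch of 229 identical bases, and the other 5 pairs were between 90.12% and 92.17% identical. A pair of coding stretches are shown because they set out what a read can tell apart. The first is from exon 9 of Naip5 (chr13:100223253-100223312), its largest coding exon. Naip5 and Naip6 differ in it as much as in the median of 1711 stretches of 60 bases within this exon. Capitals mark bases that differ from Naip5.
Naip5: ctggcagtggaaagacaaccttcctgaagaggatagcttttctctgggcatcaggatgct
Naip6: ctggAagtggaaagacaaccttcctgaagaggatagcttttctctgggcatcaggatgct
Naip2: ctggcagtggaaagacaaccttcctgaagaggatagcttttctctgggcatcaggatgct
Naip1: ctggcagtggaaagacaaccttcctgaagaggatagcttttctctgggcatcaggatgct
Naip6 differs here from Naip5 at 1 base, and Naip2 and Naip1 at 0 bases, so a read from within this stretch is the same for Naip5, Naip2 and Naip1. The second stretch is from exon 10 of Naip5 (chr13:100219686-100219745). It holds the most differences between Naip5 and Naip6 among 2978 stretches of 60 bases compared over the whole coding sequence. Capitals again mark bases that differ from Naip5.
Naip5: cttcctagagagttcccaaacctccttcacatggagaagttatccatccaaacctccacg
Naip6: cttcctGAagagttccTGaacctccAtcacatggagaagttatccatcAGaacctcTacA
Naip2: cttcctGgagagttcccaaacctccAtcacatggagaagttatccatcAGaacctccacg
Naip1: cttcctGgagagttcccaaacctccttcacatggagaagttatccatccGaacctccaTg
Naip6 differs at 9 bases of this stretch, Naip2 at 4 and Naip1 at 3. These sequences are those of GENCODE M21 on GRCm38, the genome of the C57BL/6 strain, read 5′ to 3′ on the minus strand, whereas the tumors and mice are BALB/c, and NAIP copies are known to vary between strains.

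The share of a gene's 31-base words that occur in no other gene was 46.9% for Naip5, 55.7% for Naip1, 65.0% for Naip6 and 67.2% for Naip2. Naip5 shared 36.7% of its words with Naip6. Outside the NAIP genes the share was between 87.3% for Pycard and 100% for Nlrp3, Casp1 and Gsdmd. The estimates for the NAIP genes therefore rest in part on how reads of shared sequence were divided between rows, and each single paralog is uncertain to that extent. GENCODE M21 also places Naip3 and the pseudogene Naip3-ps1 in the family, and Naip3 held 32.8% of the words of Naip1, 21.1% of those of Naip5, 20.0% of those of Naip2 and 12.6% of those of Naip6. Neither was analysed here, so the sums below cover 4 paralogs.

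Naip5, a flagellin receptor, was measured at 5.04, 6.75 and 4.90 CPM in NaCl tumors 1 to 3 and at 13.1, 11.0 and 11.8 CPM in H89 tumors 1 to 3. The 3 H89 tumors lay above all NaCl tumors, with means of 12.0 ± 1.07 and 5.56 ± 1.03 CPM (SD, n = 3 each), a fold of 2.15 and a log2 fold change of 1.10 with a standard error of 0.17. Naip6, the other flagellin receptor, was at 4.28, 5.11 and 4.46 CPM in NaCl tumors and at 9.02, 10.1 and 9.09 CPM in H89 tumors. The groups did not overlap here either, at 4.62 ± 0.436 against 9.41 ± 0.617 CPM, a fold of 2.04 and a log2 fold change of 1.03 with a standard error of 0.15. With any 1 of the 6 tumors left out, the log2 fold change lay between 1.02 and 1.27 for Naip5 and between 0.97 and 1.11 for Naip6.

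Naip2, the receptor for the rod protein, was the most abundant paralog and showed no such gap. Its CPM was 25.2, 28.9 and 28.8 in NaCl tumors and 27.4, 27.4 and 33.6 in H89 tumors. The groups overlapped, at 27.6 ± 2.10 and 29.5 ± 3.58 CPM, and the log2 fold change was 0.10 with a standard error of 0.12. Naip1, the needle protein receptor, was close to the limit of detection. Its estimated counts were 1.00, 6.21 and 8.14 in NaCl tumors and 12.3, 10.3 and 16.2 in H89 tumors, or 0.0360, 0.224 and 0.292 against 0.428, 0.304 and 0.486 CPM. Every H89 tumor was above every NaCl tumor, but H89 tumor 2 by little, and Naip1 did not reach the mean of 0.5 CPM needed to enter the fit.

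**Figure D1:**
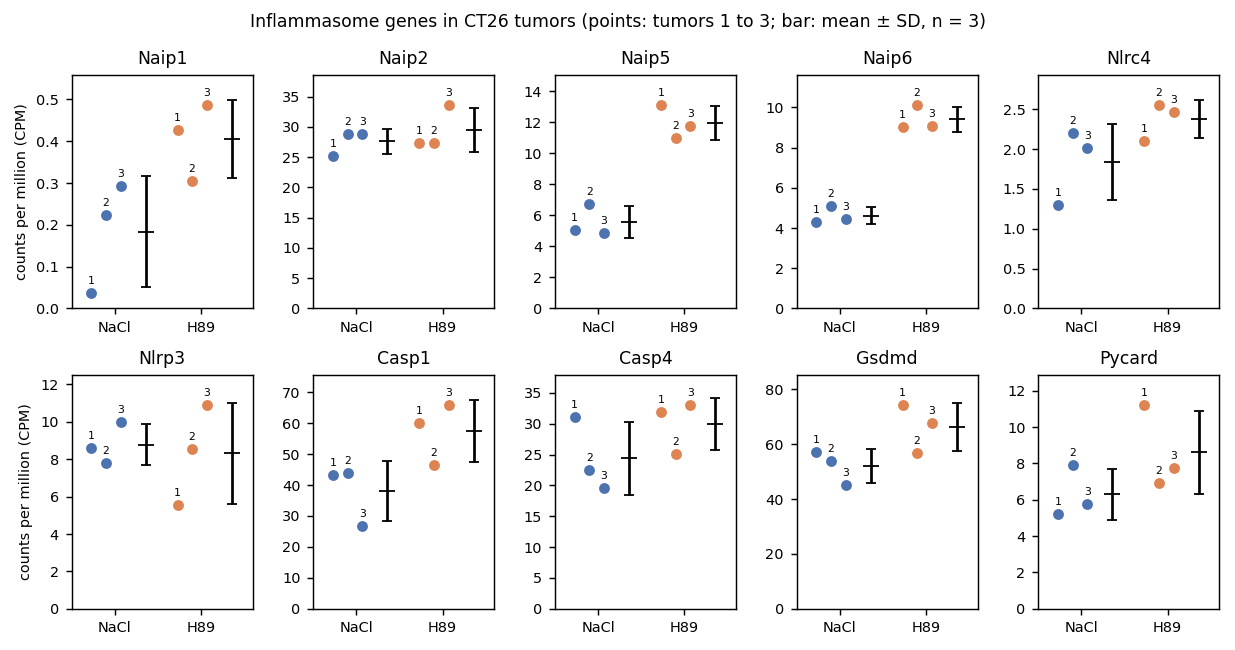
CPM of the 10 genes in each tumor, with 1 panel per gene and its own axis from 0. Points numbered 1 to 3 are the tumors of the NaCl and H89 groups, and the bar beside them is the mean with SD. The groups are apart for Naip1, Naip5, Naip6 and Casp1, and overlap for the other 6 genes.

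Since reads shared by paralogs may be assigned to one row or another, the NAIP rows were also summed. The 4 together were at 34.5, 40.9 and 38.4 CPM in NaCl tumors and at 50.0, 48.8 and 54.97 CPM in H89 tumors, so that the sum too was higher in each H89 tumor. The log2 ratio of the means was 0.43, and it was also 0.43 when the rows were summed before the fit. Naip5 and Naip6 together were at 9.32, 11.9 and 9.36 CPM in NaCl tumors and at 22.1, 21.1 and 20.9 CPM in H89 tumors, whereas the sum of Naip1 and Naip2 overlapped, at 27.8 ± 2.23 and 29.9 ± 3.66 CPM.

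The make-up of NAIP transcripts does not depend on scaling between tumors. Like the 4-gene sum, it holds the Naip5 and Naip6 values on which the genes were selected. Naip5 and Naip6 took 26.98%, 29.0% and 24.4% of the 4-gene sum in NaCl tumors and 44.3%, 43.2% and 37.9% in H89 tumors, and Naip2 took 72.8 ± 2.20% and 57.4 ± 3.34%. The balance between Naip5 and Naip6 overlapped between the groups: Naip6 made up 45.9%, 43.1% and 47.7% of the pair in NaCl tumors and 40.7%, 47.9% and 43.6% in H89 tumors.

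**Figure D2:**
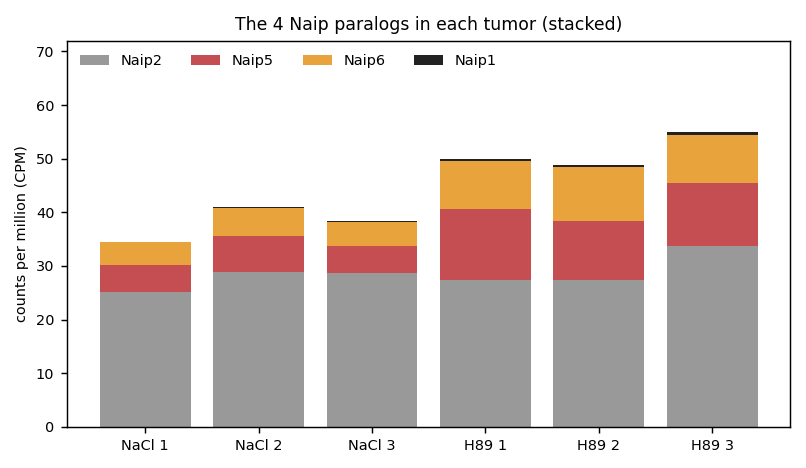
CPM of the 4 NAIP paralogs stacked for each of the 6 tumors. Naip2 is the largest segment in every tumor, the Naip5 and Naip6 segments are taller in each H89 tumor than in any NaCl tumor, and Naip1 is a thin line at the top.

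Nlrc4 (ENSMUSG00000039193, chr17:74425438-74459142, minus strand), which every NAIP needs in order to signal, was at 1.29, 2.20 and 2.01 CPM in NaCl tumors and at 2.10, 2.55 and 2.46 CPM in H89 tumors. The groups overlapped through H89 tumor 1, and the log2 fold change was 0.37 with a standard error of 0.26. The ratio of Naip5 to Nlrc4 was 3.89, 3.07 and 2.44 in NaCl tumors and 6.24, 4.31 and 4.78 in H89 tumors. This ratio holds the Naip5 values on which the genes were selected. Without NaCl tumor 1 the log2 fold change of Nlrc4 was 0.17.

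Nlrp3 (ENSMUSG00000032691, chr11:59541568-59566956, plus strand), the sensor of potassium efflux and many other danger signals, was the 1 tested member with a negative log2 fold change, -0.08 with a standard error of 0.24. It was at 8.60, 7.79 and 9.98 CPM in NaCl tumors and at 5.53, 8.54 and 10.9 CPM in H89 tumors, and the H89 tumors held both the lowest and the highest value. Its log2 fold change was 0.14 without H89 tumor 1 and -0.32 without H89 tumor 3. Pycard (ENSMUSG00000030793, chr7:127989708-127993867, minus strand) encodes ASC, the adaptor that links sensors to caspase-1. It was at 5.22, 7.90 and 5.77 CPM in NaCl tumors and at 11.2, 6.90 and 7.72 CPM in H89 tumors. H89 tumor 1 stood above the rest, the other tumors overlapped, and the log2 fold change was 0.45 with a standard error of 0.24, or 0.22 without H89 tumor 1. Exons of Pycard overlap Gm45205 on the opposite strand, and the counting is not stated to use strand.

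Casp1 (ENSMUSG00000025888, chr9:5298517-5307265) and Casp4 (ENSMUSG00000033538, chr9:5308828-5336783) are neighbours on the plus strand of chromosome 9. Casp1, the effector of NLRC4 and NLRP3 inflammasomes, was at 43.4, 43.8 and 26.8 CPM in NaCl tumors and at 60.04, 46.5 and 65.8 CPM in H89 tumors. The groups did not overlap, although NaCl tumor 2 and H89 tumor 2 were close, and the log2 fold change was 0.60 with a standard error of 0.21. Without NaCl tumor 3 it was 0.40. Casp4, also called caspase-11 in mice and the sensor of cytosolic lipopolysaccharide, was at 31.1, 22.4 and 19.6 CPM in NaCl tumors and at 31.8, 25.0 and 32.99 CPM in H89 tumors. Here NaCl tumor 1 lay within the H89 range, and the log2 fold change was 0.30 with a standard error of 0.19. It was 0.51 without NaCl tumor 1 and 0.16 without NaCl tumor 3.

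Gsdmd (ENSMUSG00000022575, chr15:75862327-75867408, plus strand), the substrate that forms the pore, was at 57.0, 53.8 and 45.1 CPM in NaCl tumors and at 74.2, 56.8 and 67.8 CPM in H89 tumors. The groups met at NaCl tumor 1 and H89 tumor 2, and the log2 fold change was 0.35 with a standard error of 0.13. NaCl tumor 3 was the lowest tumor for Casp1, Casp4 and Gsdmd alike.

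Of the 9 members that entered the fit, 8 had a positive log2 fold change and the median was 0.37, where the median over the 13118 genes tested was 0.004. By edgeR's quasi-likelihood test with Benjamini-Hochberg adjustment over all genes tested, 2 of the 9, Naip5 and Naip6, had an adjusted p under 0.05 on the higher side, where 0.861% of all genes did, and 0 were called lower, where 0.724% of all genes were. All 3 H89 tumors were above the 3 NaCl tumors for 3 of the 9 and below for 0 of the 9. Over all genes these shares were 15.2% and 15.5%. As the list was drawn up from this same contrast, nothing is read from the members' counts. DESeq2's Wald test called 3 of the 9, Casp1 in addition to these, where it called 10.9% of all genes with an adjusted p. The edgeR calls of Naip5 and Naip6 were lost whenever any 1 tumor was left out, which left 0 of 9 members and 0 to 12 of all genes called.

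Compared per length of the longest coding transcript, levels in NaCl tumors followed the order Gsdmd (29.0 CPM per kb), Casp1 (25.4), Casp4 (17.0), Naip2 (5.72), Nlrp3 (2.19), Pycard (1.66), Naip5 (1.07), Naip6 (0.676), Nlrc4 (0.388) and Naip1 (0.0337). The NaCl values of neighbours in this order overlapped for Gsdmd with Casp1, for Casp1 with Casp4 and for Nlrp3 with Pycard, and were apart for the other neighbours. The downstream protease and pore genes were thus well above the receptors, and Nlrc4 was below the 3 expressed receptors. In H89 tumors Casp1 (38.4 CPM per kb) and Gsdmd (37.0) headed the order with overlapping values. Naip5 (2.30), Pycard (2.26) and Nlrp3 (2.07) came behind Casp4 (20.9) and Naip2 (6.11), and their values overlapped from one to the next, as did those of Nlrp3 and Naip6 (1.38). Pycard has a short coding sequence in a long annotated transcript, and per kb of coding sequence it ranked 4 in both groups.

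The 48 other inflammasome genes of the table, listed by role, were tested in the same fit, and 43 of them passed the filter on low values. Called genes numbered 0 of 43 by edgeR's quasi-likelihood test with adjustment over all genes. At an unadjusted p under 0.05, 11 were higher, where 13.1% of all genes were, and 1 was lower, where 11.9% of all genes were. DESeq2's Wald test called 5 of them (Mefv, Casp12, Trim30a and Nlrc5 higher, Ninj1 lower), and it called 10.9% of all genes with an adjusted p. The median log2 fold change over the 43 genes was 0.16.

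Among the other sensors, 3 of 8 passed the filter. Mefv, which encodes pyrin, was at 1.29, 1.34 and 0.694 CPM in NaCl tumors and at 2.14, 2.43 and 2.43 CPM in H89 tumors, without overlap, and its log2 fold change of 1.07 had a standard error of 0.29 and an adjusted p of 0.0878 in edgeR's test. Aim2, the sensor of cytosolic DNA, was at 17.6, 19.5 and 22.1 CPM against 22.6, 27.4 and 27.8 CPM, a log2 fold change of 0.39 (edgeR adjusted p = 0.121). Both were higher in each H89 tumor, although neither passed the threshold.

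Of the 12 upstream activators, 10 had a positive log2 fold change. The 2 with the smallest p were Gbp5, an interferon-induced GTPase, and Tlr5, the surface receptor for flagellin. Gbp5 was at 32.4, 25.5 and 9.14 CPM in NaCl tumors and at 56.3, 28.1 and 75.9 CPM in H89 tumors (log2 fold change 1.26, edgeR adjusted p = 0.162), so that H89 tumor 2 was below NaCl tumor 1. Tlr5, which sees flagellin outside the cell as Naip5 does inside, was at 1.62, 1.79 and 1.35 CPM against 2.85, 2.43 and 1.98 CPM, a log2 fold change of 0.61 (edgeR adjusted p = 0.174).

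The 10 effectors had a median log2 fold change of 0.05. Casp12, an inflammatory caspase of the Casp1 group, was at 25.0, 22.5 and 16.0 CPM in NaCl tumors and at 31.8, 27.4 and 40.1 CPM in H89 tumors, a log2 fold change of 0.65 (edgeR adjusted p = 0.105). Ninj1, which ruptures the membrane after pore formation, pointed the other way. It was at 92.5, 84.6 and 89.9 CPM in NaCl tumors and at 74.4, 65.1 and 67.6 CPM in H89 tumors, a log2 fold change of -0.37 with a standard error of 0.08 (edgeR adjusted p = 0.0689).

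Il1b and Il18, the cytokines that caspase-1 matures, were measured as well. Il1b was at 18.2, 16.8 and 26.4 CPM in NaCl tumors and at 7.56, 10.7 and 26.3 CPM in H89 tumors. The groups overlapped widely, with a log2 fold change of -0.46, an SE of 0.43 and an adjusted p of 0.531 in edgeR's test. Il18 was at 1.62, 2.68 and 2.08 CPM against 2.75, 2.25 and 3.16 CPM, a log2 fold change of 0.35 (edgeR adjusted p = 0.424). Of the 4 substrates and outputs, 3 had a negative log2 fold change.

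Of 8 inhibitors tested, Trim30a, a negative regulator of NLRP3, had a log2 fold change of 0.56 (60.03 ± 7.84 against 88.8 ± 20.7 CPM, edgeR adjusted p = 0.113). Il18bp, the soluble trap of IL-18, had one of 1.05 (15.4 ± 8.38 against 31.99 ± 12.3 CPM, edgeR adjusted p = 0.211). The groups overlapped for both genes. Among 6 further NLR genes, Nlrc5 and Ciita, which drive transcription of MHC class I and class II genes, had the smallest p. Nlrc5 was at 72.7, 61.3 and 36.5 CPM in NaCl tumors and at 116, 82.2 and 148 CPM in H89 tumors, a log2 fold change of 1.02 (edgeR adjusted p = 0.0888). Ciita was at 3.99, 3.92 and 0.658 CPM against 9.55, 6.26 and 15.6 CPM, a log2 fold change of 1.87 (edgeR adjusted p = 0.111). The order of the H89 tumors was the same for both, and tumor 3 was the lowest of the NaCl tumors.

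**Figure D3:**
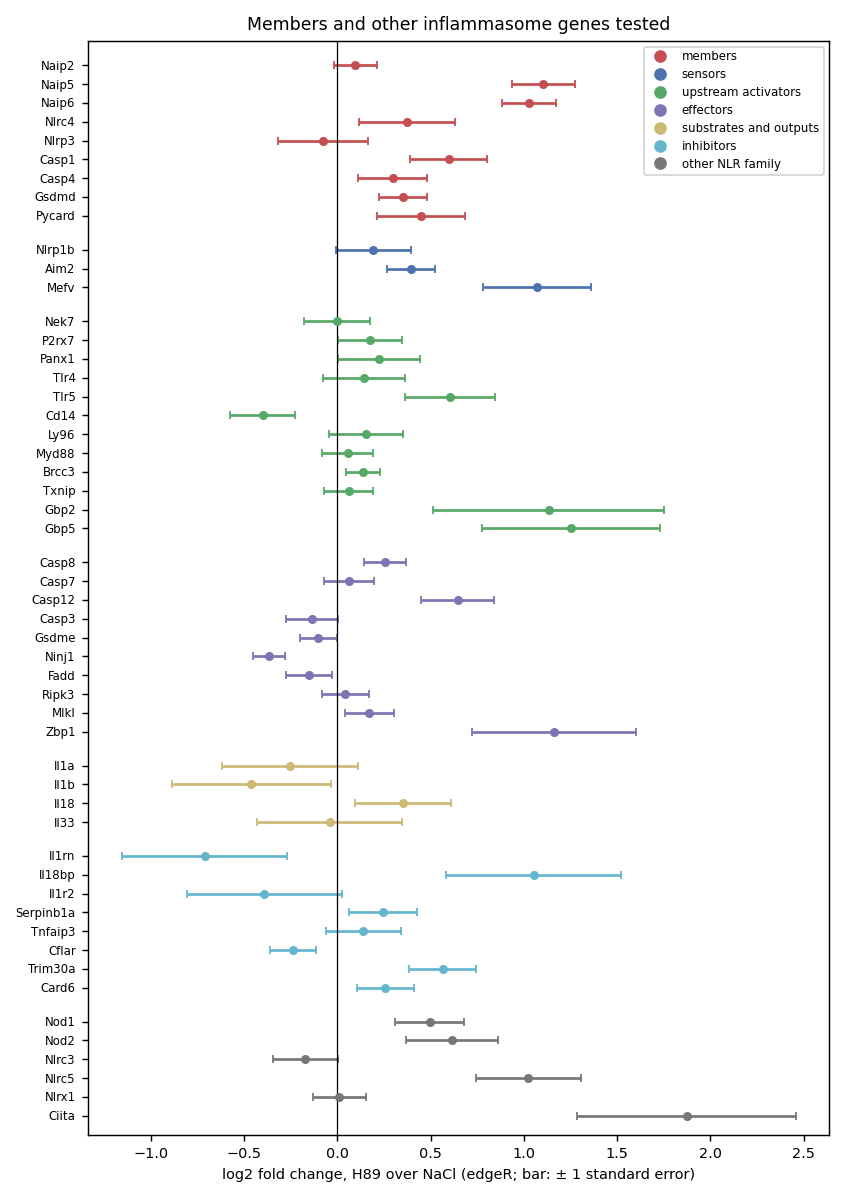
Log2 fold change of H89 over NaCl tumors with 1 standard error for the 9 members in the fit and the 43 other inflammasome genes, colored by role. Naip5 and Naip6 lie at 1.10 and 1.03, and Ciita, Gbp5, Zbp1, Gbp2, Mefv, Il18bp and Nlrc5 lie at 1.02 or more with adjusted p-values above the threshold in edgeR's test.

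What Naip5 and Naip6 share with genes beside them on the chromosome was examined next. The table held 13 genes within 300 kb of the NAIP span, and 9 of them passed the filter. EdgeR's quasi-likelihood test called 0 of the 9 with an adjusted p, where it called 0.861% of all genes higher and 0.724% lower. At an unadjusted p under 0.05, 1 of the 9 was lower, where 11.9% of all genes were. DESeq2's Wald test called 1 of the 9, and it called 10.9% of all genes. Their median log2 fold change was 0.001. Of the neighbours under the filter, Cartpt and Marveld2 overlapped between the groups, and Serf1 and Ocln were higher in each H89 tumor at low counts. Serf1 had 2.47, 10 and 0 counts in NaCl and 15, 18 and 13 in H89 tumors. Ocln had 3 counts in each NaCl tumor and 5.00, 4.00 and 4.00 in H89 tumors. Among the 9 tested neighbours, no such gap upward was seen. The log2 fold changes of the tested neighbours ran from -0.39 for Smn1, which encodes a protein of spliceosome assembly (38.6 ± 0.953 against 29.4 ± 1.99 CPM, edgeR adjusted p = 0.0635), to 0.54 for Ccdc125 (0.770 ± 0.270 against 1.12 ± 0.237 CPM, edgeR adjusted p = 0.361).

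**Figure D4:**
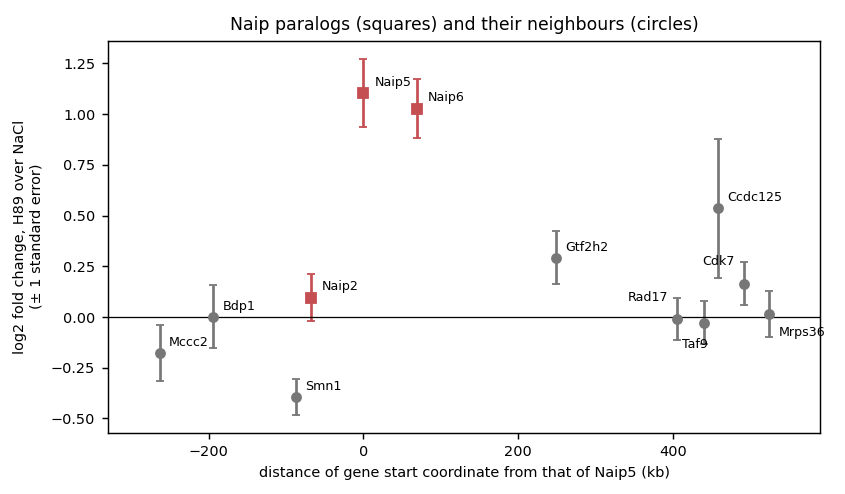
Log2 fold change of H89 over NaCl tumors with 1 standard error for 3 NAIP paralogs (squares) and the 9 tested neighbours (circles), against the distance in kb from Naip5. Naip5 and Naip6 stand above 1, while Naip2 and the tested neighbours lie between -0.39 and 0.54. Naip1 and the neighbours under the filter have no fitted value and are not shown.

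The sequences before the transcription starts of the NAIP genes are shown because Naip5 and Naip6 differed between the groups while Naip2 did not. They are the last 150 bases before the start given by RefSeq on GRCm38.p6, minus strand, 5′ to 3′. Capitals mark runs of at least 8 bases shared with the Naip5 window, and in the Naip5 line itself the runs shared with Naip2. The windows are chr13:100247337-100247486 for Naip5, chr13:100202123-100202272 for Naip2, chr13:100452865-100453014 for Naip1 and chr13:100316617-100316766 for Naip6.
Naip5: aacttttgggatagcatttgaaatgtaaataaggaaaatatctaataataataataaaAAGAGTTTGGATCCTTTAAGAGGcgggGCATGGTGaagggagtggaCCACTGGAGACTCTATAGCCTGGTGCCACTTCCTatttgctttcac
Naip2: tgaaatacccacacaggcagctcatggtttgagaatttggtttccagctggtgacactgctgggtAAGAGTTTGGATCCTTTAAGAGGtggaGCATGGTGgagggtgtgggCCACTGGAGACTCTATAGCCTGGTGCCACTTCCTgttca
Naip1: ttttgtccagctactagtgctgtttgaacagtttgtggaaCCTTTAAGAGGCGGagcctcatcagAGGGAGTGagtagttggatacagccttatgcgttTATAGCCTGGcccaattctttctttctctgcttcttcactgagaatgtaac
Naip6: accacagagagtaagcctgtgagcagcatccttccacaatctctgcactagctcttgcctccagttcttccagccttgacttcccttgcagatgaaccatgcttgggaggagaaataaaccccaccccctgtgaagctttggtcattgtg
The Naip5 window shared 65 bases in such runs with Naip2, the longest of 34 bases, and 32 bases with Naip1. With Naip6 it shared 0 bases in such runs, and no common stretch was longer than 6 bases. The start of Naip6 depends on the annotation, since GENCODE M21 and RefSeq place it 1058 bases apart, and that of Naip5 differs by 1013 bases. By GENCODE M21 the Naip6 window lies inside the Naip6 gene, and windows at the GENCODE starts were not compared. Whether sequence before the starts bears on the fold changes was not tested.

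The motifs below were searched on both strands in the 250 bases before each start, in 11 windows of 9 members; the table of windows gave none for Gsdmd. The interferon-stimulated response element core GAAANNGAA, the gamma-activated site TTCNNNGAA and the cAMP response element TGACGTCA were in 0 of the 9 members, and over all 32851 windows in 7.13%, 7.02% and 1.55%. Its shorter form TGACG, which is part of the full element, was in Casp4 alone of the 9, and in 17.8% of all windows. The PU.1 core GAGGAA was in Casp1, Pycard and 1 of the 2 windows of Nlrp3, and in 23.2% of all windows. An absence says only that these letters are not in this window.

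The genes whose values over the 6 tumors were most like those of Naip5 and Naip6 were looked for among 13116 other genes. The measure was the root mean square difference of log2(CPM + 0.5), after centring on the 6 tumors, from the mean of Naip5 and Naip6. The closest were Sned1 (0.0760), Ifi206 (0.0950), Zc3h7a (0.0954), Grk3 (0.101) and 9930111J21Rik2 (0.111), and the median gene was at 0.536. Naip5 and Naip6 differed directly from each other by 0.145. That value is not on the same scale, since each of them lies nearer to their mean than to the other. Sned1, an extracellular matrix protein, was at 5.61, 6.71 and 5.63 CPM in NaCl tumors and at 12.2, 13.9 and 11.8 CPM in H89 tumors. Ifi206, of the interferon-inducible family that includes Aim2, was at 0.216, 0.485 and 0.256 CPM against 0.998, 0.912 and 1.09 CPM. Its log2 fold change in edgeR's fit was 1.64 with a standard error of 0.36. The added 0.5 CPM narrows differences at such low values, so its closeness depends on that setting. Grk3 encodes a kinase of G protein-coupled receptors and Zc3h7a a zinc finger protein. Of the 7 other members in the fit, 6 were closer to the mean of Naip5 and Naip6 than the median gene and Nlrp3 was farther. Their ranks were Casp1 at 709, Pycard at 1177, Gsdmd at 1327, Nlrc4 at 1545, Casp4 at 2928, Naip2 at 4142 and Nlrp3 at 11114. The reference pattern is made of the Naip5 and Naip6 values on which the genes were selected, so nothing is read from this count or these ranks.

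Marker lists of cell types differed in how they moved with the groups, and their part in the values above was not tested. The summed CPM of 11 macrophage markers overlapped between the groups (2188 to 3470 in NaCl, 2637 to 3204 in H89 tumors), with 9 of 11 log2 fold changes positive and a median of 0.10. That of 8 neutrophil markers overlapped as well (31.7 to 44.5 against 34.7 to 50.9), and Ly6g was listed at 0 in every tumor. The 5 monocyte markers summed to 83.7 to 129 CPM in NaCl and 131 to 181 CPM in H89 tumors, and the 7 dendritic cell markers to 10.4 to 13.6 and 17.2 to 19.1 CPM, both without overlap. The monocyte sum was mostly Plac8, which overlapped (65.1 ± 15.3 against 80.9 ± 20.0 CPM), and Ccr2 (29.8 ± 8.70 against 56.7 ± 9.74 CPM). Zbtb46 was the largest part of the dendritic cell sum (7.79 against 10.1 CPM). Of the tested genes, 1 of 4 monocyte and 4 of 5 dendritic cell genes were higher in each H89 tumor, where 15.2% of all genes were. In edgeR's test, 0 of the tested genes of these 4 lists had an adjusted p under 0.05. Fibroblast markers summed to 2475 to 2707 CPM in NaCl and 2778 to 3564 CPM in H89 tumors and B cell markers to 1.40 to 1.86 and 2.32 to 3.43 CPM, again without overlap, and 6 of 6 tested fibroblast genes had a positive log2 fold change. T cell markers (16.4 to 36.0 against 30.8 to 77.6 CPM) and NK cell markers (6.10 to 36.0 against 15.9 to 56.1 CPM) overlapped, with median log2 fold changes of 1.24 and 1.07 and a positive value for 8 of 8 and 4 of 4 genes tested. The sum of 7 keratinocyte markers was lower in each H89 tumor (45.9 to 73.1 against 14.0 to 17.9 CPM), but it was mostly Cdsn (54.6 ± 13.6 against 12.4 ± 1.98 CPM). Of the 7, 5 were under a mean of 0.5 CPM, and Krt10 had a positive log2 fold change of 0.31. The sum thus reports Cdsn and not keratinocyte markers as a set. Endothelial markers overlapped (83.0 to 142 against 69.9 to 108 CPM). Skeletal muscle markers set H89 tumor 1 apart, at 18.4 CPM where the other 5 tumors were between 0.950 and 2.34 CPM.

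The 16 interferon-responsive genes summed to 1132, 1105 and 626 CPM in NaCl tumors 1 to 3 and to 2217, 1136 and 1987 CPM in H89 tumors 1 to 3. All 16 had a positive log2 fold change, where 6638 of all 13118 genes tested did, and the median was 0.77. In edgeR's test, 0 of the 16 had an adjusted p under 0.05, where 0.861% of all genes were called higher. At an unadjusted p under 0.05, 10 were higher, where 13.1% of all genes were. From low to high the sum ran NaCl tumor 3, 2, 1 and H89 tumor 2, 3, 1. Naip5 ran in nearly the same order, with NaCl tumors 1 and 2 exchanged, whereas for Naip6 H89 tumor 2 was the highest and NaCl tumor 1 the lowest. H89 tumor 2 was close to NaCl tumor 1 in the interferon-responsive sum. For Naip5 and Naip6 together it was at 21.1 CPM, where the highest NaCl tumor was at 11.9 CPM. The part of interferon-responsive transcription in the NAIP values was not tested.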

How the data were processed

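RNA of 3 NaCl and 3 H89 CT26 tumors, sequenced on the BGISEQ-500 platform, was analysed. The authors deposited 1 table of estimated counts per gene, named TPM; its values were taken to be expected counts because each tumor summed to at least 27067349 and between 58.62% and 61.41% of nonzero values were whole within 0.01. The submitters' processing notes name kallisto, DESeq2 and GRCm38, without versions for the tools; kallisto divides reads of shared sequence between transcripts by a model, so near-identical paralogs inform each other's values. The annotation is not given in the sources used here.

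Counts were rounded. Genes with a mean of at least 0.5 CPM were fitted with edgeR 4.0.16 in R 4.3.3 (TMM, glmQLFit, glmQLFTest, treatment as the only term), with Benjamini-Hochberg adjustment over all 13118 genes. CPM used the TMM library sizes. Alternatives were other filters, median ratio, upper quartile and quantile normalization, limma 3.58.1 voom, DESeq2 1.42.0, a block for the replicate number, and leaving out each tumor in turn. Counting error alone sets the floor of 3 counts. The code was tested on simulated data.

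The members and gene lists were chosen with earlier results of these data known. Named were all members, Il1b, Il18, the 2 genes with the smallest p in each pathway list, any pathway gene called, the outermost neighbours of the NAIP genes and the 5 genes of closest pattern. Pydc3 and Pydc4, also listed, were not analysed here. Other gene symbols singled out were chosen after their values were seen.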

Additional observations from a re-analysis of the deposited data

How the results depend on the processing

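Naip5 and Naip6 kept a positive log2 fold change under all 14 alternatives (0.94 to 1.27 and 0.82 to 1.11) and an adjusted p under 0.05 in 7 of 14. Both genes were selected on their higher values in these same H89 tumors, so the kept sign and calls support nothing. Members called numbered 2, against 3 with DESeq2, which added Casp1, 0 with the replicate block and 0 in each fit without 1 tumor. Over all genes, 208 were called (113 higher, 95 lower), against 80 with quantile normalization (55 higher, 25 lower), 1396 with DESeq2 (696 higher, 700 lower), 0 with the replicate block and 0 to 12 without 1 tumor. Upper quartile normalization gave 117 higher and 62 lower. The causes were not tested, beyond the fewer samples or residual degrees of freedom of the last fits. DESeq2 called 5 other inflammasome genes and 1 neighbour where edgeR called 0 of each. The numbers are not known to pair tumors, since same-numbered tumors deviated together with correlations of 0.16, 0.06 and -0.02, and not every tumor correlated best with its own number. Under quantile normalization the log2 fold change of Naip6 was 0.82 and that of Nlrc4 0.09. That of Naip2 was -0.01 without H89 tumor 3. The log2 ratio of the NAIP sum lay between 0.37 and 0.50 under its alternatives, with the highest value on library totals. Depth limits Naip1 most, at 1.00 to 16.2 counts.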
